A study of Homo sapiens with 2 samples.

Results

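The genes described here are those of follistatin, its relatives, the activin subunits and the activin receptors: FST, FSTL1, FSTL3, INHBA, INHBB, INHBE, ACVR1, ACVR1B, ACVR2A and ACVR2B. These 10 genes, of 19412 that the array measured with probes naming a single gene, carried 15 probes. The group was picked from the measured values of this same comparison, because FST had the lowest ratio among 9516 genes with one. Genes without a ratio were not ranked. The other members of the group were taken by family name. The values of FST are therefore given as a description, with no test. The cells were A375SM, a highly metastatic human melanoma line, transduced with lentivirus and then sorted by flow cytometry for the upper 50% of GFP-positive cells. The line labelled NFAT1-shRNA (KD in the files) carried a short hairpin RNA directed at NFAT1 (gene NFATC2), a transcription factor that calcineurin activates, and the line labelled NT-shRNA carried a non-targeting hairpin in the same parental cells. The sources used here give neither the hairpin sequences nor whether either line was a clone. RNA of each line was measured on Cy5-labelled arrays, with 3 biological replicates per line by the design text.

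Activins are secreted dimers of inhibin beta subunits. An activin binds a type II receptor (ACVR2A or ACVR2B), which recruits and phosphorylates a type I receptor such as ACVR1B, and the type I receptor phosphorylates SMAD2 and SMAD3, which enter the nucleus with SMAD4. Follistatin is a secreted glycoprotein that wraps around activin and blocks its access to the receptors, and its own gene is a known target of activin signalling in several cell types.

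The table gives 1 combined value per probe and line, with an error whose kind (standard deviation, standard error or modelled) is not stated, so a spread between replicates could not be computed and the differences have no replicate check. Intensities are normalized and linear, in arbitrary units, and the value after each ± is the deposited error. A signal is called detected where its deposited detection p-value is under 0.01. The lowest detected signal was 78.3 in NFAT1-shRNA cells and 60.4 in NT-shRNA cells. The number of arrays limits the precision. NFATC2, the targeted gene, read 279.2 ± 15.7 in NFAT1-shRNA cells and 199.4 ± 15.2 in NT-shRNA cells on its brighter probe, and the authors' deposited table puts its log2 ratio at 0.12. Its other probe, detected in neither line, read 41.6 ± 9.55 in NFAT1-shRNA cells and 57.8 ± 10.6 in NT-shRNA cells, with a ratio of -0.23 in the authors' deposited table (unadjusted p of 0.504). The deposited values therefore do not show a lower NFATC2 RNA level in NFAT1-shRNA cells. They leave the labels unchecked, and every direction here is that of the lines as labelled. Of 9 melanocyte lineage markers, 8 were detected in NFAT1-shRNA cells and 7 in NT-shRNA cells. PAX3 was detected in neither line. Of the 8 with a ratio, the pigment enzymes TYR and DCT were called higher in NFAT1-shRNA cells, beside 3.35% called higher over all genes. The 6 that did not pass went both ways in the authors' deposited table. MITF had -0.50 (interval -0.94 to -0.06), MLANA -0.29, PAX3 -0.07, SOX10 0.01, PMEL 0.13 and S100B 0.43. In all, 5 of the 8 ratios were above 0 and 3 below, with a median of 0.07, so a general rise of these markers is not shown. TYR read 288.6 ± 19.0 in NFAT1-shRNA cells and 74.6 ± 7.60 in NT-shRNA cells, and the authors' deposited table puts its log2 ratio at 1.63 (p of 1.2e-21 after Benjamini-Hochberg adjustment over all genes). DCT had 799.8 ± 65.9 in NFAT1-shRNA cells and 312.9 ± 33.9 in NT-shRNA cells, and the authors' deposited table gives 1.01 on the log2 scale (adjusted p of 5.37e-05). TYRP1, another pigment enzyme, was detected in NFAT1-shRNA cells alone, at 138.1 in NFAT1-shRNA cells and 15.8 in NT-shRNA cells. The part of these markers in the FST and INHBA values was not tested. None of 4 endothelial markers was detected, and of 5 leukocyte markers CD68 was the only one detected, in both lines. Of 4 keratinocyte markers, KRT10 and KRT14 were detected in both lines. Of 8 fibroblast markers, LUM was detected in both lines, and COL1A2 read 3.34 in NFAT1-shRNA cells and 82.7 in NT-shRNA cells and was detected in the NT-shRNA cells alone. DCN, another of these, is listed at 6267 ± 7799 in NFAT1-shRNA cells and 1.39 ± 4.07 in NT-shRNA cells and was detected in neither. The part of other cell types in the results was not tested.

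Follistatin stood far lower in NFAT1-shRNA cells. The brighter FST probe (Entrez gene 10468), which the table assigns to both RefSeq transcripts of the gene, read 88.1 ± 9.44 in NFAT1-shRNA cells and 672.6 ± 73.3 in NT-shRNA cells. The signal was detected in both lines, but in NFAT1-shRNA cells it lay near the lowest detected signal, with a detection p-value of 0.00381. The deposited errors were 10.7% of the signal in NFAT1-shRNA cells and 10.9% in NT-shRNA cells. The log2 ratio (NFAT1-shRNA over NT-shRNA) listed by the authors' deposited table was -3.21, which is 9.23-fold higher in NT-shRNA cells, and the deposited errors give a 95% interval of -3.64 to -2.77. As in any bulk sample, fewer cells expressing the gene and less RNA per cell cannot be told apart. The other FST probe, assigned to 1 of these transcripts, read 9.29 ± 4.81 in NFAT1-shRNA cells and 21.8 ± 6.69 in NT-shRNA cells. It was detected in neither line and has no ratio in the table, so the value of FST rests on 1 probe.

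FST was rank 1 from the bottom among 9516 genes with a ratio, and this rank is what chose the group. By the rule used for naming genes with a similar difference, the nearest ratios among genes detected in NT-shRNA cells were those of PLAC8, FLT1 and VDAC1. With only 2 lines, the measure of likeness is the log2 ratio alone. It was 0.51 above that of FST for PLAC8, 0.62 above for FLT1 and 0.79 above for VDAC1. All of their intervals around the authors' ratio overlap that of FST: -3.00 to -2.39 for PLAC8, -3.01 to -2.17 for FLT1 and -3.58 to -1.25 for VDAC1. The wide VDAC1 interval goes with errors of 26.4% of the signal in NFAT1-shRNA cells and 31.5% in NT-shRNA cells.

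Of the other follistatin family genes, FSTL1 did not pass the threshold and FSTL3 was not detected. FSTL1, a secreted relative of follistatin, read 117.7 ± 14.9 in NFAT1-shRNA cells and 91.0 ± 13.6 in NT-shRNA cells. The authors' deposited table puts its log2 ratio at 0.06 (interval -0.50 to 0.61), with a p of 0.978 after Benjamini-Hochberg adjustment over the 9516 genes with a ratio, as for each adjusted p here. That interval spans moderate changes in either direction, so an equal level is not shown. FSTL3, which like follistatin binds activins, read 15.7 ± 4.92 in NFAT1-shRNA cells and 22.7 ± 7.33 in NT-shRNA cells, was detected in neither and has no ratio.

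**Figure D1:**
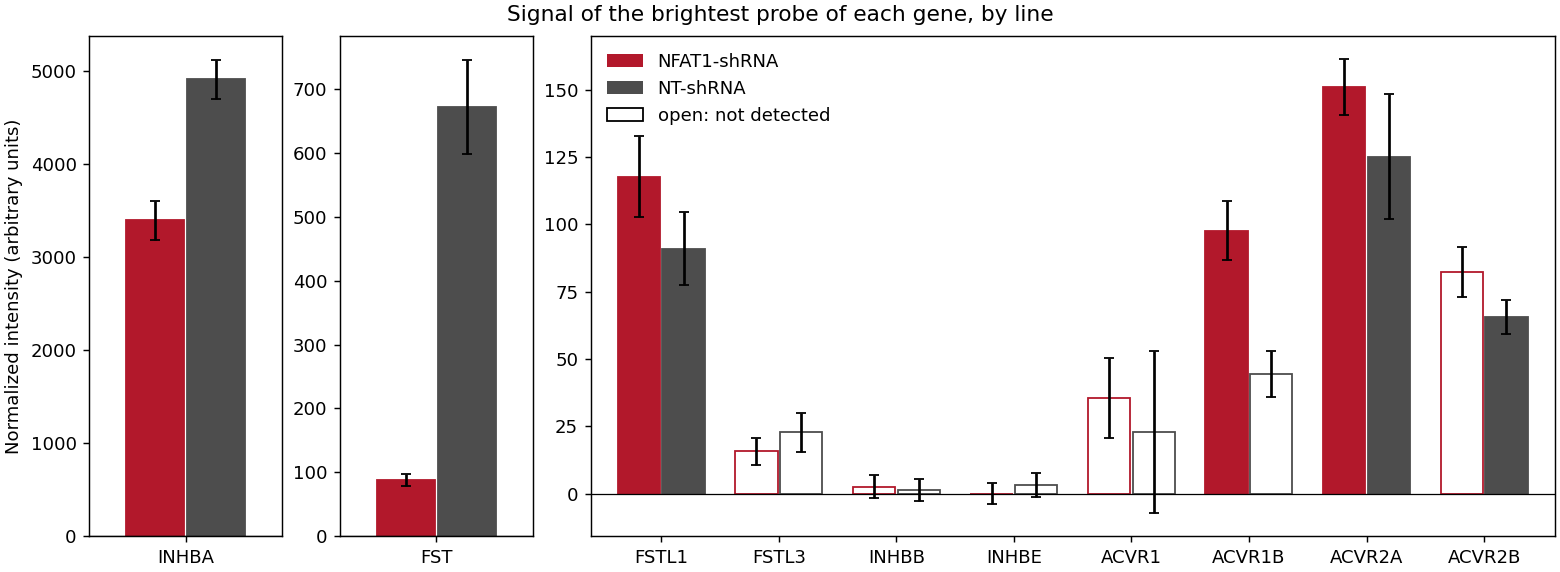
Normalized intensity (vertical axis, linear, arbitrary units) of the brightest probe of each of the 10 genes in NFAT1-shRNA cells (red, left) and NT-shRNA cells (grey, right), with the deposited error as bars. Open bars are signals not detected. INHBA and FST have axes of their own. FST stands at 88.1 in NFAT1-shRNA cells and 672.6 in NT-shRNA cells.

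Among the ligand genes, INHBA was also lower in NFAT1-shRNA cells. INHBA encodes the beta A subunit, of which activin A is the dimer. Its brighter probe (Entrez gene 3624) read 3390 ± 206.8 in NFAT1-shRNA cells and 4906 ± 208.3 in NT-shRNA cells. The error bars of the lines are well apart, and the signal was strong in both. In the authors' deposited table the log2 ratio was -0.77, 1.71-fold higher in NT-shRNA cells (interval -0.98 to -0.56) with an adjusted p of 9.39e-07. Of the genes with a ratio, 2.06% had a lower one. The ratio of FST was below that of INHBA by a log2 difference of -2.43 (interval -2.91 to -1.95 from the deposited errors), which is given as a description because FST was chosen by its ratio. The other INHBA probe read 14.3 in NFAT1-shRNA cells and 11.6 in NT-shRNA cells and was detected in neither, so this value too rests on 1 probe.

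The sequences shown are the 250 bases before the annotated start of FST and INHBA, the members just described as lower in NFAT1-shRNA cells, picked after their values were seen. They are printed because proteins of the NFAT family bind the core GGAAA, and this core, in capitals on either strand (TTTCC is its reverse complement), can be read in both. They come from RefSeq on GRCh38.p14, 5′ to 3′ along the gene, at chr5:53480379-53480628 (plus strand) for FST and chr7:41703091-41703340 (minus strand) for INHBA.
FST: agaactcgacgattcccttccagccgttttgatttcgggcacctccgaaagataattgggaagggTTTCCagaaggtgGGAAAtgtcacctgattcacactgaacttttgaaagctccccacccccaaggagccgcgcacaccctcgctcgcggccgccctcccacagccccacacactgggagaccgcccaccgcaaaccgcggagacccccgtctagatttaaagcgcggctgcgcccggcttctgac
INHBA: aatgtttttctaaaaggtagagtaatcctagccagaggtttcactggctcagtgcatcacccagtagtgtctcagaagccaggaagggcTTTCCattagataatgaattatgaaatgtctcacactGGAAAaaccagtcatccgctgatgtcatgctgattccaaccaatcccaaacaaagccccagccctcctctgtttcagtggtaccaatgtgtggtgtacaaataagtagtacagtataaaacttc

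In the FST window, GGAAA began 172 bases before the start on the gene's strand and its reverse complement began 185 bases before it. In the INHBA window they began 124 and 161 bases before the start. Of 9 members with a promoter entry (12 promoters in all, since ACVR1 and ACVR1B have several), FST, INHBA, ACVR1, ACVR2A and ACVR2B held the core on some strand. FST and INHBA were the ones that held it on both. Counted by window, 5 of the 12 member promoters held the core and 2 held it on both strands. Over 35114 promoter windows of the same length in the RefSeq table, 55.7% held the core on either strand and 11.9% on both, so a match in such a window is common. The pattern TGANTCA, with any base at N, was searched too, and as a pattern it reads the same on both strands. It is looser than the site of the AP-1 factors that often bind beside NFAT, so a match need not be that site. It was found in the FST window, from 160 to 154 bases before the start with no overlap with GGAAA, and in an ACVR1 window, against 6.57% of all windows. The letters of the FST match are TGATTCA. A match describes the letters of the window and is neither a measured binding site nor a cause of the values.

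The remaining ligand subunits were not detected in either line. INHBB, the beta B subunit of activin B, read 2.63 ± 4.38 in NFAT1-shRNA cells and 1.46 ± 4.14 in NT-shRNA cells. INHBE, the beta E subunit, best known from liver, read -0.01 ± 4.02 in NFAT1-shRNA cells and 3.20 ± 4.56 in NT-shRNA cells. Each of these signals lay within its own error of 0.

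Of the type I receptors, ACVR1B was detected in NFAT1-shRNA cells alone. ACVR1B (ALK4) is the main type I receptor of activins. Its brighter probe (Entrez gene 91) read 97.6 ± 10.9 in NFAT1-shRNA cells and 44.5 ± 8.50 in NT-shRNA cells. Against the lowest detected signal of NT-shRNA cells, after taking off the shift of the median gene, its reading was 1.31-fold higher in NFAT1-shRNA cells. That fold leaves out the deposited errors and is no lower limit, since the interval of the ratio reaches below it. The log2 ratio listed by the authors' deposited table was 0.86 (interval 0.23 to 1.49) with an unadjusted p of 0.0211. After adjustment over all genes p was 0.156, so it did not pass the threshold of 0.05, although it did with the plain quotient of the intensities (adjusted p of 0.00396). Its other probe read 10.7 in NFAT1-shRNA cells and 6.37 in NT-shRNA cells and was detected in neither. ACVR1 (ALK2), a type I receptor used mainly by bone morphogenetic proteins, read 35.5 ± 14.9 in NFAT1-shRNA cells and 22.9 ± 30.2 in NT-shRNA cells. It was detected in neither line, and no fold is taken from it.

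The type II receptors were dim, and neither passed the threshold. ACVR2A (Entrez gene 92) read 151.0 ± 10.4 in NFAT1-shRNA cells and 125.1 ± 23.2 in NT-shRNA cells. It was detected in both, and the error bars overlap. The authors' deposited table puts its log2 ratio at -0.07 (interval -0.63 to 0.49), with an adjusted p of 0.973. The sign depends on the scale, since the plain quotient gave 0.27. ACVR2B (Entrez gene 93) read 82.2 ± 9.28 in NFAT1-shRNA cells, where its detection p-value of 0.0140 missed the limit, and 65.6 ± 6.23 in NT-shRNA cells, where it was detected. No bound on a fold can be drawn from these values. The authors' deposited table lists a log2 ratio of 0.06 (adjusted p of 0.972), which also changes sign with an offset of 50, to -0.037. The dimmer probes of ACVR2A and ACVR2B were detected in neither line.

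Counted together, 5 of the 15 probes were detected in NFAT1-shRNA cells, 5 in NT-shRNA cells and 9 in neither. All 10 genes had a probe, and the authors' deposited table gave a ratio for 7 of them. The 3 without one were FSTL3, INHBB and INHBE. Leaving out FST, 1 of 6 genes with a ratio (INHBA) was called at an adjusted p under 0.05, and it was lower. Over all genes with a ratio, 7.55% were called, 4.19% lower and 3.35% higher in NFAT1-shRNA cells. Higher genes were 44.4% of these calls, and 93.5% of the calls with the plain quotient of the intensities. The group was chosen with this comparison known, so its count is a description. The median log2 ratio of these 6 genes was 0.06, where all genes had -0.02, and 4 of the 6 ratios were above 0. Those above 0 include ACVR1, detected in neither line, and ACVR2B, whose sign depends on the scale. Only 3 of the 6 genes were detected in both lines, so the count of signs says little.

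**Figure D2:**
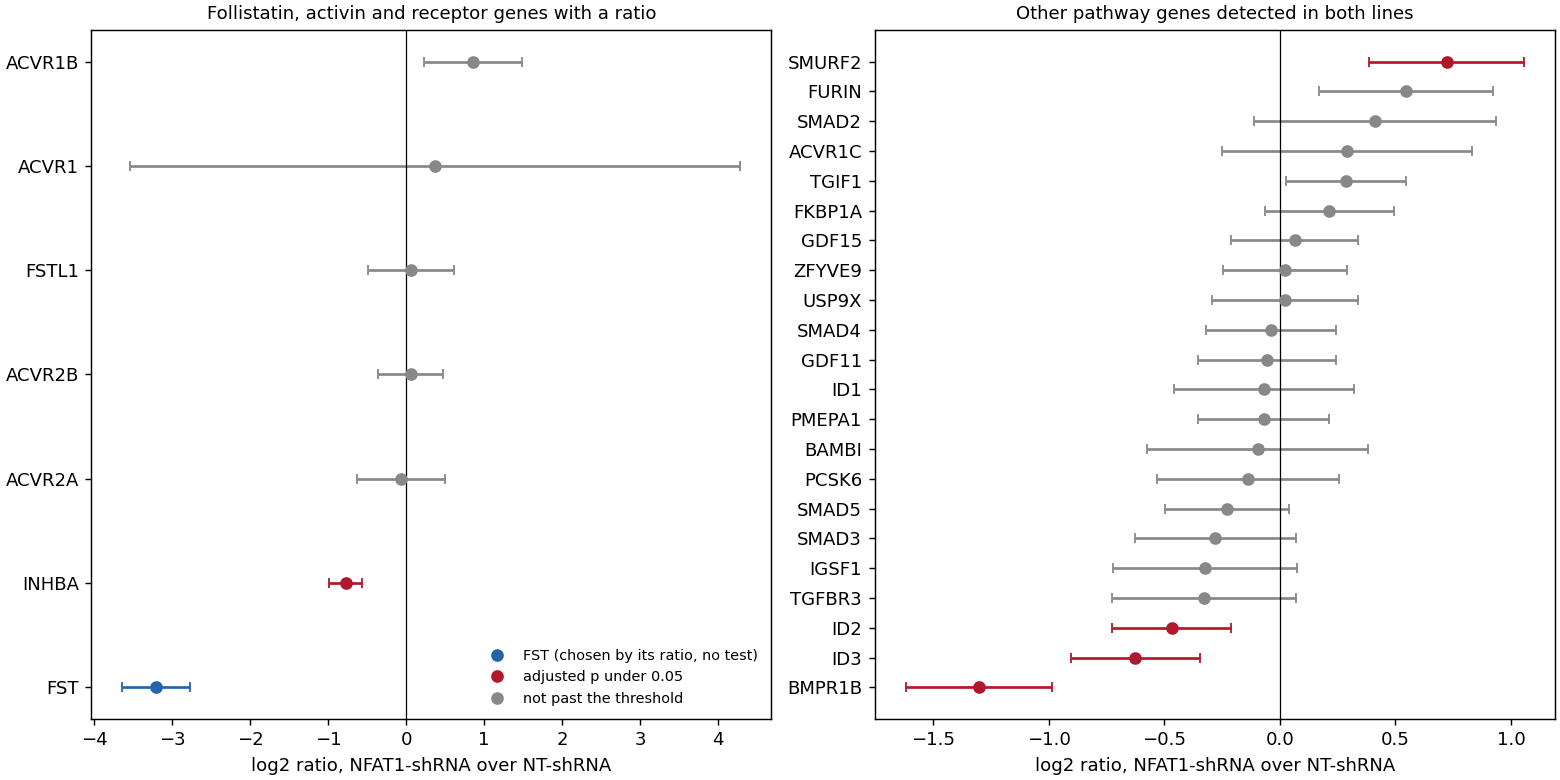
Log2 ratio, NFAT1-shRNA over NT-shRNA, from the authors' deposited table (horizontal axis) with 95% intervals from the deposited errors, for the 7 genes of the group with a ratio (left) and for the 22 other pathway genes detected in both lines (right). FST at -3.21 and INHBA at -0.77 stand below 0 on the left, and BMPR1B at -1.30 and SMURF2 at 0.72 are the ends of the range on the right.

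**Figure D3:**
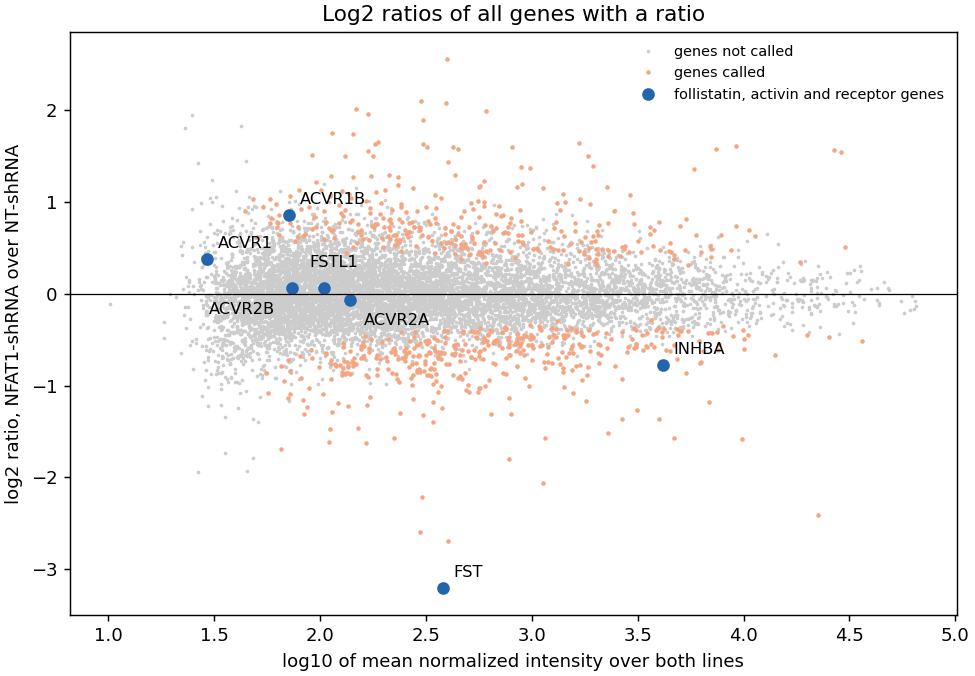
Log2 ratio, NFAT1-shRNA over NT-shRNA (vertical axis) against the log10 of the mean intensity of both lines (horizontal axis) for the 9516 genes with a ratio. Called genes are orange and the members with a ratio are blue. FST is the lowest point of the plot, while the receptors and FSTL1 lie among genes that were not called, at low intensity.

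The wider pathway was read from a list of 58 ligands, antagonists, receptors, SMAD proteins and their regulators, target genes and processing proteases. Of these, 56 had a probe of a single gene and 26 had a ratio. In NFAT1-shRNA cells 3 of the 26 were called lower and 1 higher, and 22 did not pass, beside the 7.55% called over all genes. Ratios were below 0 for 16 and above 0 for 10, and their median was -0.07 where all genes had -0.02.

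The called receptor was BMPR1B, a type I receptor of bone morphogenetic proteins. It read 162.2 ± 14.1 in NFAT1-shRNA cells and 312.3 ± 22.0 in NT-shRNA cells. The log2 ratio listed by the authors' deposited table was -1.30 (interval -1.62 to -0.98) with an adjusted p of 1.07e-10. Its other probe, detected in neither line, had -0.48 there with an interval of -1.08 to 0.12, so the size rests on the brighter probe. The receptors ACVR1C (ALK7), which also serves activins, and TGFBR3 (betaglycan), a co-receptor that lets inhibin compete with activin, had 0.29 and -0.33 in the authors' deposited table and did not pass. The type II receptor BMPR2 was detected in neither line.

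Of 5 target genes on the list, 3 had a ratio, and ID3 and ID2 were called lower, beside 4.19% called lower over all genes. Both encode inhibitors of DNA binding, which are induced by bone morphogenetic proteins through SMAD1 and SMAD5. ID3 read 5544 ± 322.9 in NFAT1-shRNA cells and 7336 ± 588.2 in NT-shRNA cells. The authors' deposited table puts its log2 ratio at -0.62 (interval -0.90 to -0.34, adjusted p of 0.00414), and its other probe, detected in both lines, had -0.51 with an interval of -0.97 to -0.05 and did not pass (unadjusted p of 0.0686). The interval of that other ID3 probe, from the deposited errors, is narrower than the authors' p implies. ID2 read 374.2 ± 27.0 in NFAT1-shRNA cells and 404.7 ± 22.4 in NT-shRNA cells, and these error bars overlap. The value of -0.47 that the authors' deposited table lists (adjusted p of 0.0384) rests on the centring of the ratio, as the plain quotient was -0.11 and did not pass (adjusted p of 0.569). ID1 had -0.07 in the authors' deposited table and did not pass.

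Among 19 SMAD proteins and their regulators, 11 had a ratio and SMURF2 was the one called, beside 7.55% called over all genes. SMURF2 is a ubiquitin ligase that marks SMADs and their receptors for degradation. It read 244.9 ± 17.3 in NFAT1-shRNA cells and 116.3 ± 11.0 in NT-shRNA cells, and the authors' deposited table lists 0.72 as its log2 ratio (interval 0.39 to 1.06, adjusted p of 0.000505). The SMADs that carry the activin signal did not pass. In the authors' deposited table SMAD2 had 0.41, SMAD3 had -0.28 and SMAD4 had -0.04, and the dimmer SMAD2 and SMAD3 probes with a ratio had the opposite sign. SMAD7, an inhibitory SMAD, was detected in neither line.

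Of 12 antagonists on the list, BAMBI, a decoy receptor, was the only one detected. It stood at -0.09 on the log2 scale in the authors' deposited table (interval -0.57 to 0.38). Noggin (NOG), chordin (CHRD) and gremlin (GREM1) were detected in neither line. Of 11 ligands, GDF11 and GDF15 were detected. The authors' deposited table lists -0.05 for GDF11 and 0.06 for GDF15, and neither passed. INHA, the inhibin alpha subunit, was not detected. The protease FURIN, which cleaves ligand precursors, read 539.3 ± 55.9 in NFAT1-shRNA cells and 284.2 ± 23.9 in NT-shRNA cells. Its ratio of 0.55 in the authors' deposited table did not pass (adjusted p of 0.201). It did pass with the plain quotient (0.92, adjusted p of 4.91e-05), the centred quotient (0.62, adjusted p of 0.0186) and the offset of 50 with centring (0.59, adjusted p of 0.0112).

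The size of each value depends on how the lines are put on a common scale, because the median gene read 1.23-fold brighter in NFAT1-shRNA than in NT-shRNA cells (0.30 on the log2 scale). Without centring, FST stood at -2.93, INHBA at -0.53, BMPR1B at -0.95 and ID3 at -0.40, while SMURF2 stood at 1.07 and ACVR1B at 1.13. Under the 4 scales tried, FST, INHBA, BMPR1B, ID3 and ID2 kept a value below 0, and SMURF2 and ACVR1B kept one above 0.

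**Figure D4:**
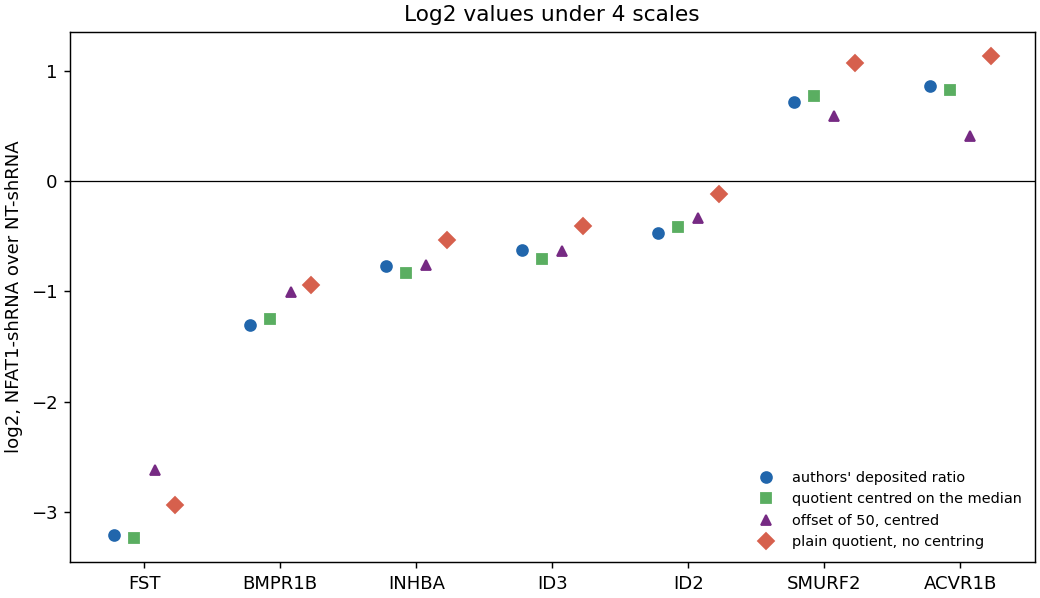
Log2 value of NFAT1-shRNA over NT-shRNA (vertical axis) of 7 genes under 4 scales: the authors' deposited ratio, the quotient of intensities centred on the median gene, the same with an offset of 50, and the plain quotient. No gene shown crosses 0. FST runs from -3.24 to -2.62, and ID2 comes closest to 0, at -0.11 with the plain quotient.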

How the data were processed

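Per the file headers, the deposited values are detection p-values, normalized intensities and their errors for each line, and the authors' log2 ratio of NFAT1-shRNA (KD) to NT-shRNA with the authors' p-value for it, all as 1 combined value per probe. Normalization, the combination of 3 replicates, the kind of error and the p-value's method are not stated in the sources used here. The series matrix held the same deposited intensities within 1e-06. The planned test across arrays could not be run, as no value per array was used here; the authors' p-values were used in its place. Probes naming 1 gene (25650 of 29187) were used, with symbols updated by Entrez number (25400 matched to RefSeq GRCh38.p14), and each gene was represented by its brightest probe. The authors' p-values were adjusted by the Benjamini-Hochberg method over 9516 genes with a ratio and called under 0.05. A ratio stood mostly where both detection p-values were under 0.99 (98.6% of probes with a ratio, 2.01% of those without). Intervals propagate the deposited errors as normal standard errors. They do not always match the authors' p-values and can be narrower than those imply, so calls rest on the p-values. Where 1 line was not detected, a fold is taken against the lowest detected signal of that line, with the errors left out.

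All member probes were named, with NFATC2, the called and 3 most changed detected genes of the pathway list, and the 3 genes with ratios nearest to FST. Other pathway genes named in the text were chosen after their values were seen. Members and lists were chosen with earlier results of these data known. List genes BMPR1A and TDGF1 were not analysed here. Alternatives covered scale, offset, probe choice, detection filter, adjustment and the source of the p. Calculations used Python 3.11.15, numpy 2.4.6, pandas 2.3.3 and scipy 1.17.1, and the propagated-error test was tested on simulated data.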

Additional observations from a re-analysis of the deposited data

How the results depend on the processing

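FST kept its direction under the alternatives that recompute its value. It stood at -3.24 with the centred quotient, -2.93 with the plain quotient and -2.62 with an offset of 50 and centring. All of these start from the same FST intensities, in the comparison that chose the group. They show how the size of the FST value moves with the scale and are no independent check of its direction. The other alternatives that gave FST or INHBA a value reuse the authors' ratio, so the direction was fixed there in advance. INHBA kept its call under every alternative that gave it a value. Where its value was recomputed it kept its direction, from -0.84 with the centred quotient to -0.53 with the plain quotient. Leaving out FST, 2 members were called with the plain quotient, INHBA and ACVR1B (1.13), and 1, INHBA, with the authors' ratio and under each other alternative that gave values. ACVR2A turned to 0.27 with the plain quotient and ACVR2B to -0.037 with the offset of 50, neither past the threshold. Of the pathway list, 8 genes were called with the plain quotient (6 higher, 2 lower) against 4 with the authors' ratio (1 higher, 3 lower). The centred quotient called 5 and the offset of 50 called 5, FURIN being added in both. With the mean of all probes of a gene 5 were called (1 higher, 4 lower), USP9X being added. On a second probe, 1 of 10 genes was called (USP9X, lower, named after its values were seen). The probes of USP9X differ: the authors' deposited table lists -0.84 for that probe and 0.02 (adjusted p of 0.983) for the brighter one. By construction the plain quotient keeps the shift between the lines, and it called 2278 genes in all, 93.5% of them higher, against 718 and 44.4% with the authors' ratio. On a second probe fewer genes are tested (70 of 1680 called), and there the BMPR1B value was -0.48 and that of ID3 -0.51, neither past the threshold. No member has a second probe with a ratio, so that alternative gave none of them a value. With only probes detected in both lines, the 4 members tested were FST, FSTL1, INHBA and ACVR2A. ID2 was not called with the plain quotient, at -0.11. The other 84 values computed kept their direction and their side of the threshold, or for counts stayed within 1.5 times. Part of these directions were fixed in advance, because alternatives that change the adjustment, the filter or the p keep the authors' ratio. No paired analysis was possible because each line has 1 combined value. For the same reason no replicate could be left out. Signal over background limits the dim genes: FSTL3, INHBB, INHBE and ACVR1 were not detected in either line, and FST in the NFAT1-shRNA line lay near the detection limit.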
